A study of Mus musculus with 17 samples.

Results

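The genes described here are 9 of the 49585 genes in the count tables: the adult beta globin genes Hbb-bs and Hbb-bt, the adult alpha globin genes Hba-a1 and Hba-a2, and 5 genes of developing red cells (erythroblasts), namely Alas2, Slc4a1, Klf1, Gata1 and Epor. They were selected on measured values, because red cell genes were seen to be higher in KO than in WT libraries at 2 and at 4 weeks, so their KO and WT levels are given below as a description without a test. The question was whether the 4 globin genes or the 5 erythroblast genes carried that signal.

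The study profiled RNA of bone marrow endothelial cells from mice in which the TGF-beta family co-receptor endoglin (Eng) could be deleted. The line was Cdh5:CreERT2-Engf/f: a Cre recombinase that tamoxifen switches on and that the promoter of the endothelial cadherin Cdh5 drives, together with loxP sites around exons 5 and 6 of Eng. All mice, WT and KO alike, were labelled as injected with tamoxifen, which was given at 8 weeks of age, and the labels do not say whether WT mice carried the Cre. Cells of crushed long bones were treated briefly with a buffer that lyses red cells, and sorted as CD45-, Ter119-, CD31+ and Sca1+, where Ter119 marks red cells from the early erythroblast onwards. Bulk SmartSeq2 libraries were made 2 weeks after induction from 4 WT and 4 KO mice, with 2 of either sex per genotype. The libraries made after 4 weeks came from 5 WT mice, of which 3 were male, and 4 KO mice, likewise 3 of them male. The Cre driver restricts deletion to cells that use the Cdh5 promoter.

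Haemoglobin is a tetramer of alpha and beta globin chains, each holding a haem group. Erythroblasts in the marrow, which lie against macrophages and close to the sinusoids, build haem through the enzyme ALAS2 and insert the anion exchanger SLC4A1 (band 3) into their membrane. The transcription factors GATA1 and KLF1 drive this programme, and the receptor EPOR keeps early erythroblasts alive. When the nucleus is expelled, the young red cell (reticulocyte) keeps globin mRNA for a time and has no further transcription. In RNA from a bulk sort, fewer cells of a type and less RNA per cell cannot be told apart.

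The promoters of the genes are shown as background, and their part in the levels described below was not tested. Each line holds the 120 bases directly before the RefSeq transcription start on GRCm38.p6, 5′ to 3′ on the strand of the gene. The GENCODE M21 gene models begin upstream of some of these starts. Capitals mark CACCC, a box that KLF1 binds; CCAAT, the CCAAT box; TATAA, the TATA box; and GATAA, the core that GATA1 binds. Each was searched on both strands, so that its reverse complement is marked as well, and no marked stretches overlap. The windows are chr7:103827929-103828048 for Hbb-bs, chr7:103813924-103814043 for Hbb-bt, chr11:32283552-32283671 for Hba-a1, chrX:150547297-150547416 for Alas2 and chr8:84901862-84901981 for Klf1; the Hbb genes lie on the minus strand and the others on the plus strand.
Hbb-bs: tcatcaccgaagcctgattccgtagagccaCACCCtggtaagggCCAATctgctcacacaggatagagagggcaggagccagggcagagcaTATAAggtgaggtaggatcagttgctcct
Hbb-bt: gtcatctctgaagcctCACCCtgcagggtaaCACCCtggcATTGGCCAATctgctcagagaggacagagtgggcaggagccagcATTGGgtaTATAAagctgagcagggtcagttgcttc
Hba-a1: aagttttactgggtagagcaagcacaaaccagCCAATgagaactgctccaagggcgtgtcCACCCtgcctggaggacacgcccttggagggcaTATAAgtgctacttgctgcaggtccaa
Alas2: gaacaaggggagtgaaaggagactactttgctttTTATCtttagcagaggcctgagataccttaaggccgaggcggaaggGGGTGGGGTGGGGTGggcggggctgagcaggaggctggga
Klf1: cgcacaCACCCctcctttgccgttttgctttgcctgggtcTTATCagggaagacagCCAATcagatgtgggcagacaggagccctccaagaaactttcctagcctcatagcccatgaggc

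All 4 globin windows held a CACCC box, a CCAAT box and a TATAA box, a combination found in 0.688% of the 32851 RefSeq promoter windows of the same length. GATAA was found in the windows of Alas2, Klf1 and Epor and in 10.5% of all windows, CACCC in 7 of the 8 windows of these genes and in 31.7% of all. Hba-a1 and Hba-a2 shared an unbroken stretch of 247 of the 250 bases before their starts, so their windows are not separate cases. The longest stretch shared by Hbb-bs and Hbb-bt was 14 bases. The transcripts of both pairs share sequence: 86.9% of the 50-base windows of the main Hba-a2 transcript occur in Hba-a1 and 65.8% of those of Hbb-bs in Hbb-bt, and none of an alpha transcript occurs in a beta transcript. Counts could therefore be split or lost between the members of each pair, and the setting for reads with several matches is not given in the sources used here. Slc4a1 was not among the promoter entries.

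Total counts per library ranged from 20477400 to 40882715. Between 10886 and 13583 genes had a count at 2 weeks and between 15996 and 21235 at 4 weeks, so that a gene at 0 was more common at 2 weeks. The defining endothelial markers were present: Pecam1 (CD31) ranged from 688 to 3143 counts per 1000000 (CPM) and Cdh5 from 190.1 to 759, and all 8 pan-endothelial genes were above 3 counts in every library. The targeted gene Eng was at 705 to 1307 CPM in the WT and 225 to 347 in the KO libraries of 2 weeks, and at 2400 to 2735 and 274 to 1647 in those of 4 weeks. KO m2 was the 4-week KO library with the most Eng, 1647 CPM against 274 to 873 in the other 3. At 2 weeks the KO males m2 and m3 stood apart in 10 neutrophil genes, whose summed level was 4162 and 3150 CPM against 22.6 to 238 in the other 6 libraries. At 4 weeks the VEGF receptor Kdr was at 416 to 626 CPM in 4 libraries (WT f3 and m3, KO f2 and m3) and at 1646 to 2179 in the other 5.

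Globin transcripts were present in all 17 libraries and made the bulk of the red cell signal. Hbb-bs, an adult beta globin gene (GRCm38 chr7:103826534-103828096, minus strand), was at 67.6, 68.6, 84.2 and 36.6 CPM in the 2-week WT libraries f1, f4, m2 and m3. It was at 114, 227, 550 and 344 CPM in the 2-week KO libraries f1, f4, m2 and m3. Every KO library was above every WT library at 2 weeks, and the means were 64.3 ± 19.97 (SD, n = 4) and 309 ± 186 (n = 4). At 4 weeks Hbb-bs was at 125, 589, 136, 67.0 and 680 CPM in WT f, f3, m1, m2 and m3, with a mean of 319 ± 291 (n = 5). It was at 1195, 327, 1593 and 689 CPM in KO f2, m1, m2 and m3, with a mean of 951 ± 557 (n = 4). Here the groups overlapped: KO m1 lay below WT f3 and m3, while the other 3 KO libraries were above every WT library. The highest value was in KO m2, the KO library with the most Eng.

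Hba-a1, an adult alpha globin gene (chr11:32283511-32284465, plus strand), followed the same order of libraries closely. It was at 62.1, 48.0, 66.9 and 17.04 CPM in the 2-week WT libraries f1, f4, m2 and m3, and at 87.2, 109, 397 and 257 CPM in the KO libraries f1, f4, m2 and m3. At 4 weeks it was at 68.2, 299, 70.4, 53.3 and 324 CPM in WT f, f3, m1, m2 and m3, and at 653, 166, 630.1 and 381 CPM in KO f2, m1, m2 and m3. As for Hbb-bs, no WT library reached a KO library at 2 weeks, and at 4 weeks only KO m1 fell within the WT range. Hba-a2 (chr11:32296489-32297298) did not overlap between genotypes at 2 weeks either, with 4.29 to 18.6 CPM in WT and 28.0 to 101 in KO, and ran from 17.9 to 87.1 and from 54.7 to 229 CPM at 4 weeks. Hbb-bt, the other adult beta globin gene (chr7:103812524-103813996), overlapped between genotypes at both times. Its 2-week range was 3.55 to 29.2 CPM for WT and 23.9 to 149 for KO. Its 4-week range was 6.87 to 138 CPM for WT and 52.6 to 315 for KO.

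**Figure D1:**
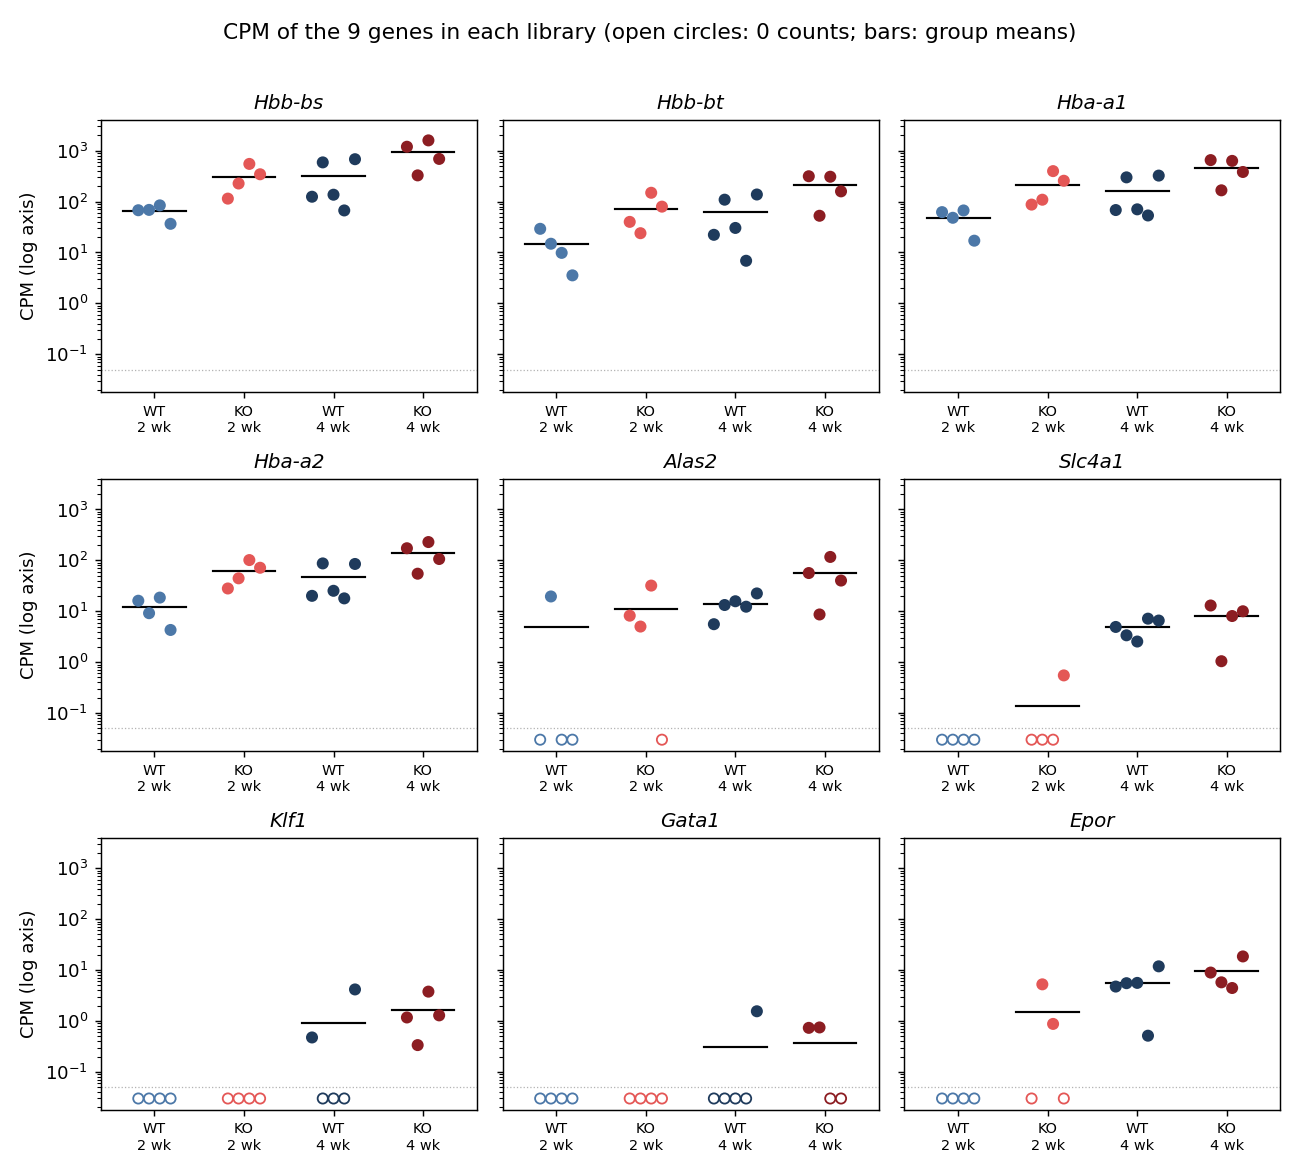
CPM (log axis) of each of the 9 genes in the 17 libraries by group, 1 point per library, with group means as bars and libraries at 0 counts as open circles below the dotted line. The 4 globin genes have counts in every library, while Klf1 and Gata1 are at 0 in all 8 libraries of 2 weeks and Slc4a1 and Epor in all 4 WT libraries of 2 weeks.

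The KO mean was 4.38 to 5.10 times the WT mean over the 4 globin genes at 2 weeks, and 2.81 to 3.40 times at 4 weeks. The fitted log2 fold changes (edgeR, with a term for sex) were 2.12 (SE 0.484) for Hbb-bs, 2.31 (SE 1.04) for Hbb-bt, 1.91 (SE 0.634) for Hba-a1 and 2.24 (SE 0.728) for Hba-a2 at 2 weeks. At 4 weeks they were 1.60 (SE 0.769), 1.77 (SE 0.859), 1.52 (SE 0.670) and 1.62 (SE 0.635) in the same order. Every KO library lay above every WT library for 3 of the 9 genes at 2 weeks, where 1.58% of the 10477 tested genes did so, and for 0 of the 9 at 4 weeks, against 0.664% of 15209. No gene of either comparison passed an adjusted p of 0.05 in edgeR, which is 0% of the genes tested at 2 weeks and 0% at 4 weeks. With an unadjusted p under 0.05 there were 276 and 422 genes, and DESeq2 called 149 and 17.

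The males m2 and m3 held much of the 2-week difference. Without both of them the log2 fold change was 1.30 for Hbb-bs, 0.49 for Hbb-bt, 0.80 for Hba-a1 and 1.49 for Hba-a2, so that for Hbb-bt the fold fell from 4.97 to 1.40. These 2 libraries are also those with the high neutrophil transcripts, and the part of other marrow cells in the globin difference was not tested. Of single libraries, WT m3 moved the 2-week value of Hbb-bt to 1.52 when left out, KO f1 to 2.92 and KO f4 to 3.07. At 4 weeks leaving out WT m3 raised all 4 values, to 2.64 for Hbb-bs, 2.88 for Hbb-bt, 2.38 for Hba-a1 and 2.28 for Hba-a2. All 132 values of the 4 globin genes over the alternatives of the KO comparisons had the same sign. The genes were selected as higher in KO and these fits share most of their libraries, so the common sign is no separate support.

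**Figure D2:**
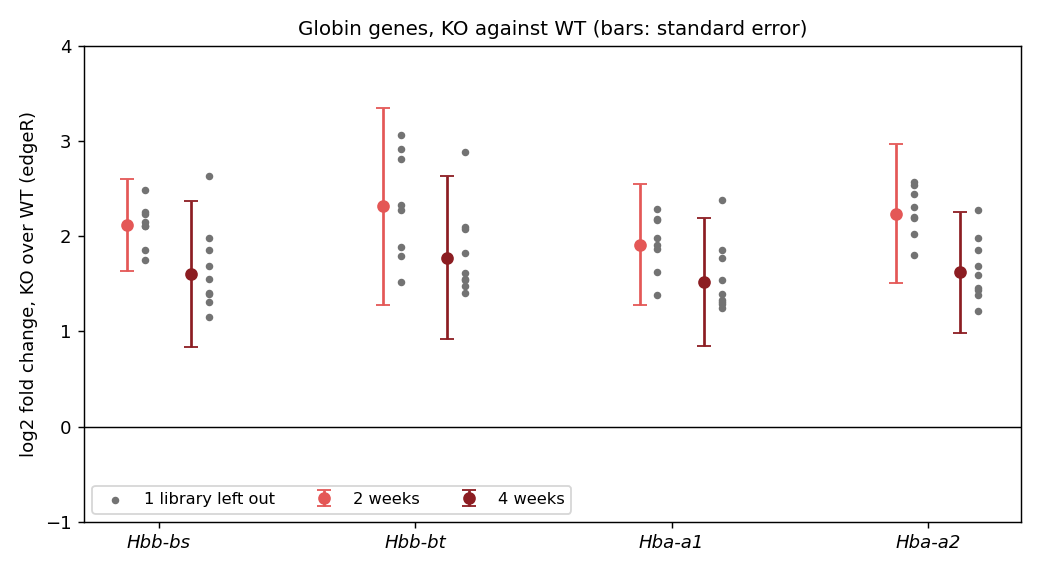
Fitted log2 fold changes of KO over WT for the 4 globin genes at 2 and 4 weeks (large points, bars are the standard error) and the values with 1 library left out (small points). All values lie above 0, between 1.15 and 3.07 with 1 library left out, and the highest small point of each gene at 4 weeks is the fit without WT m3.

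Within the globin genes the proportions varied little beside the levels. Across the 17 libraries Hbb-bs spanned 43.6-fold, from 36.6 to 1593 CPM. Per kilobase of exon, Hba-a2 made 18.9% to 33.2% of the alpha globin transcripts, with group means of 22.9% ± 2.79 (SD, n = 4) in 2-week WT, 27.6% ± 4.14 (n = 4) in 2-week KO, 27.2% ± 2.46 (n = 5) in 4-week WT and 27.3% ± 2.90 (n = 4) in 4-week KO. Both alpha genes together made 30.8% to 48.8% of the globin transcripts per kilobase, 41.2% ± 5.54 and 41.0% ± 2.24 in WT and KO at 2 weeks and 38.0% ± 6.28 and 34.5% ± 2.54 at 4 weeks. Hbb-bt made 9.60% to 32.04% of the beta globin transcripts, and its 2-week libraries were the most scattered, with 18.0% ± 10.2 in WT and 20.2% ± 7.28 in KO. For each of these proportions the ranges of WT and KO overlapped at both times.

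**Figure D3:**
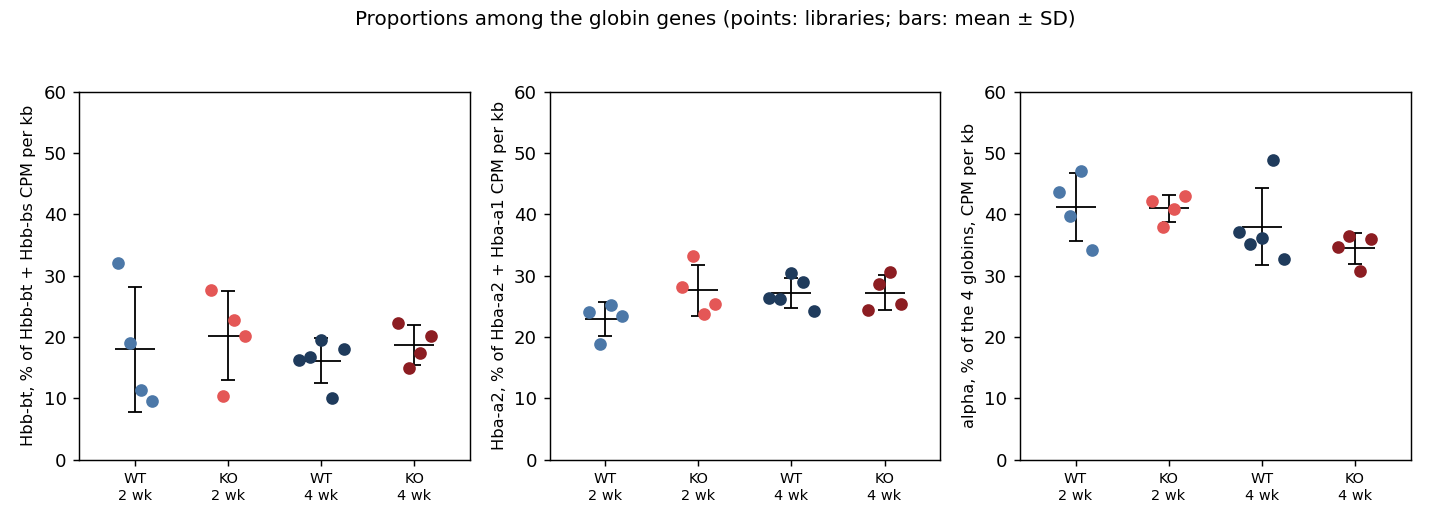
Proportions among the globin genes on the CPM per kilobase scale: Hbb-bt in percent of both beta genes, Hba-a2 in percent of both alpha genes, and both alpha genes in percent of all 4, with 1 point per library and the mean ± SD of each group. In every panel WT and KO overlap within each time, and Hbb-bt is most scattered in the 2-week libraries.

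For each of the 4 globin genes 2-week WT had the lowest and 4-week KO the highest mean. The middle groups, 2-week KO and 4-week WT, overlapped in range for all 4 genes, with means of 309 and 319 CPM for Hbb-bs. On the CPM per kilobase scale the 4-week KO means were 1238 for Hbb-bs, 564 for Hba-a1, 297 for Hbb-bt and 211 for Hba-a2. The highest erythroblast gene, Alas2, stood at 23.1 on that scale.

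Alas2, which encodes the erythroid enzyme that starts haem synthesis (chrX:150547375-150570638, plus strand), was the most abundant erythroblast gene, and it was patchy at 2 weeks. There it was at 19.5 CPM (799 counts) in WT f4 and at 0 in the other 3 WT libraries, and at 8.20, 5.01, 31.98 and 0 CPM in KO f1, f4, m2 and m3. WT f4 thus exceeded all KO libraries but m2. At 4 weeks every library held it, with 5.57, 13.3, 15.7, 12.3 and 22.4 CPM in WT f, f3, m1, m2 and m3, and 56.4, 8.66, 117 and 40.1 CPM in KO f2, m1, m2 and m3. The KO libraries f2, m2 and m3 were above all WT libraries, and KO m1, which also had the lowest globin level among the KO libraries of 4 weeks, was not. The highest level was again in KO m2. The fitted 4-week log2 fold change was 1.99 (SE 0.647), with 1.37 without KO m2 and 1.05 when the males were compared by replicate number. The 2-week value of 4.997 had an SE of 7.75 and became -0.58 without both KO males, -0.46 without KO m2 alone and 11.59 without WT f4.

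Slc4a1, the band 3 anion exchanger (chr11:102348824-102366203, minus strand), was at 0 in 7 of the 8 libraries of 2 weeks, and KO m3 held 20 counts, or 0.550 CPM. With 0 counts, the limit of 3 counts corresponds to between 0.0734 and 0.0921 CPM in the WT libraries of 2 weeks, and covers counting error only since reads carry no molecular identifiers. At 4 weeks Slc4a1 was at 4.92, 3.37, 2.54, 7.16 and 6.57 CPM in WT f, f3, m1, m2 and m3, and at 13.0, 1.04, 8.07 and 10.01 CPM in KO f2, m1, m2 and m3. KO m1 was the lowest and the other 3 KO libraries the highest of the 9. The log2 fold change of 0.72 was close to its SE of 0.677, and turned to -0.14 when the males were compared by replicate number.

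The 2 transcription factor genes were the least abundant. Klf1 (chr8:84901928-84905291, plus strand) had 0 counts in all 8 libraries of 2 weeks. At 4 weeks it had 16 counts in WT f, 102 in WT m3 and 0 in the other 3 WT libraries, and 24, 9, 101 and 34 counts in KO f2, m1, m2 and m3, or 0.336 to 3.77 CPM. All KO libraries but only 2 of 5 WT libraries thus held Klf1, though the highest level, 4.16 CPM, was in WT m3. Its fitted log2 fold change of 1.001 (SE 1.85) became 5.78 without WT m3, 0.35 without KO f2 and 4.55 when the males were compared by replicate number. Gata1 (chrX:7959260-7978071, minus strand) had counts in 3 libraries of 4 weeks, 38 in WT m3, 15 in KO f2 and 20 in KO m1, and in none of 2 weeks. Gata1 did not pass the filter on low counts in any fit, and Slc4a1, Klf1 and Epor did not pass it in the 2-week fit, so that 5 of the 9 genes were fitted at 2 weeks and 8 at 4 weeks.

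Epor, the erythropoietin receptor gene (chr9:21958897-21963506, minus strand), was at 0 in all 2-week WT libraries and had 178 counts (5.24 CPM) in KO f4 and 26 (0.875 CPM) in KO m2. At 4 weeks it was at 4.74, 5.53, 5.60, 0.514 and 11.8 CPM in WT f, f3, m1, m2 and m3, and at 8.94, 5.75, 4.44 and 18.5 CPM in KO f2, m1, m2 and m3. The groups overlapped, and the log2 fold change was 0.74 (SE 0.797), or 0.15 without KO m3 and 1.38 without WT m3. Its library order differed from that of the globin genes: KO m2, with the most Hbb-bs, had the least Epor of the KO libraries of 4 weeks. Which of the sorted cells supplied Epor was not tested.

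Summed over genes, most of the CPM difference between KO and WT was in the globins, the more abundant genes. The 4 globin genes summed to 139 ± 54.6 CPM (SD, n = 4) in 2-week WT and 655 ± 414 (n = 4) in 2-week KO, and to 591 ± 520 (n = 5) and 1758 ± 976 (n = 4) at 4 weeks. The 5 erythroblast genes summed to 4.89 ± 9.77 and 13.0 ± 13.9 CPM at 2 weeks and to 25.7 ± 12.1 and 75.0 ± 47.8 at 4 weeks. Of the difference between the KO and WT means of all 9 genes, the globins made 98.5% at 2 weeks and 95.9% at 4 weeks, or 99.5% and 98.7% per kilobase. Such a share follows abundance: globins made a mean of 97.0% of the summed CPM of the 9 genes in 2-week WT and 93.5% in 4-week WT. It does not tell which set rose more, and the genes were selected on these levels. In relative terms the KO mean was 2.98-fold the WT mean for the globins and 2.92-fold for the erythroblast genes at 4 weeks, or 2.41-fold and 2.17-fold without KO m2, whose globin sum was the highest of all libraries at 2760 CPM. Alas2 made 41.6 of the 49.3 CPM of the erythroblast difference, at 4.00-fold, or 2.53-fold without KO m2. Slc4a1 was at 1.63-fold and Epor at 1.67-fold. Klf1 was at 1.77-fold with all libraries, 1.005-fold without KO m2 and 13.8-fold without WT m3, and Gata1, at 1.19-fold, has no WT count without WT m3. For Gata1 the direction turned with other libraries left out, to 0.802-fold without KO f2, 0.787-fold without KO m1 and 0.953-fold without any 1 of the other 4 WT libraries. At 2 weeks the folds were 4.71 for the globins and 2.65 for the erythroblast genes, the latter resting on 1 WT library with any erythroblast count, and 2.42 and 1.89 without both KO males. Without KO m2 alone they were 3.41 and 1.30.

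Library by library, the globins made between 87.8% and 100% of the counts of the 9 genes. The lowest share was in 2-week WT f4, where it was 87.8% with an exact 95% binomial interval of 87.0% to 88.6%, and next came 4-week WT m2 with 87.9% (87.0% to 88.8%). These intervals cover counting error only, since reads carry no molecular identifiers. The 3 other 2-week WT libraries had 2318 to 6646 globin counts and 0 counts of the 5 erythroblast genes. The 2-week KO library m3 had 27341 globin counts beside 20 erythroblast counts, all of Slc4a1. For each 1000 Hbb-bs counts there were 22.5 to 184 of Alas2 in the 4-week libraries, with 79.9 ± 68.5 (SD, n = 5) in WT and 51.3 ± 19.7 (n = 4) in KO, so the WT range held the whole KO range.

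**Figure D4:**
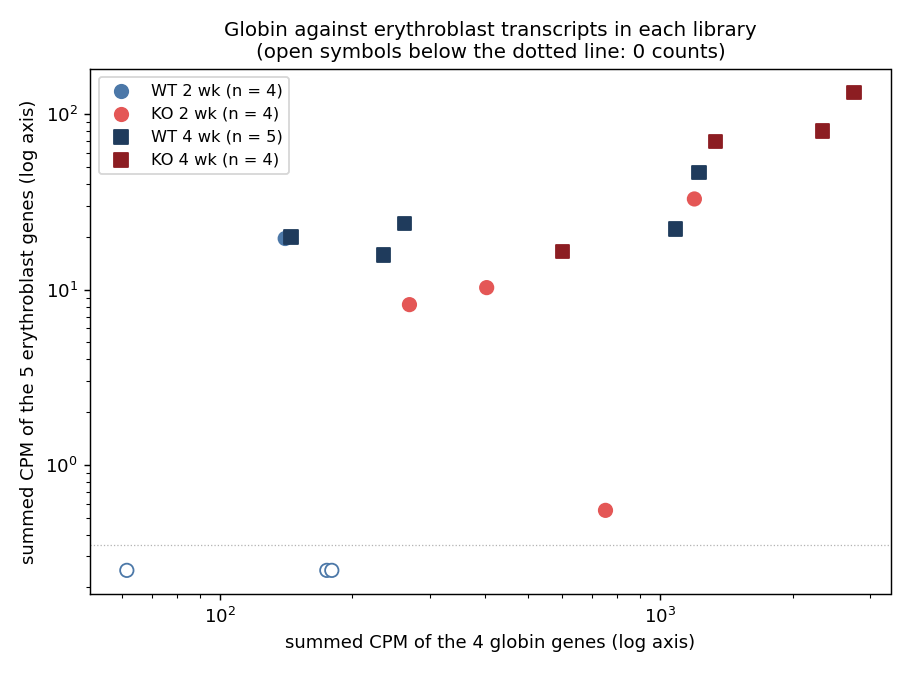
Summed CPM of the 5 erythroblast genes against summed CPM of the 4 globin genes in each library (both axes log), with libraries at 0 erythroblast counts drawn as open symbols below the dotted line. The 3 open symbols are 2-week WT libraries that have globin transcripts and no erythroblast count, 2-week KO m3 has 0.550 CPM beside 752 CPM of globin, and at 4 weeks the erythroblast sum is between 15.7 and 133 CPM in every library.

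Time was tested separately, since the genes were not selected on it, in 1 fit of all 17 libraries. The libraries of the times also differ in the number of genes detected, and time and library batch cannot be told apart. The endothelial markers moved with time as well: the 8 pan-endothelial genes summed to 3470 to 5333 CPM at 2 weeks and to 8595 to 11308 CPM at 4 weeks, and 4 of them (Pecam1, Cdh5, Emcn and Esam) were called higher at 4 weeks in both genotypes. Their part in the differences below was not tested. In WT, 2 of the 8 genes tested, Slc4a1 and Epor, passed an adjusted p of 0.05 (edgeR), both higher at 4 weeks, where 5.03% of 15703 genes were called higher and 1.88% lower and the median over all of them was 0.42 on the log2 scale. The 4-week WT mean was 60.7 times the 2-week limit of 3 counts for Slc4a1 (adjusted p = 0.0266) and 69.7 times for Epor (adjusted p = 0.0361). These are no lower bounds on the change: 1 of the 2-week WT libraries held 799 counts of Alas2 while the others held 0. Slc4a1 and Epor had counts in 5 of 5 libraries of 4 weeks and 0 of 4 of 2 weeks. Both entered the fit through their 4-week counts, having failed the filter on low counts at 2 weeks, so their calls are given as a description and support nothing. In all, 1926 of the 15703 genes (12.3%) were at 0 in every 2-week WT library, and 461 of them (23.9%) were called higher at 4 weeks, so being at 0 and then called was common in these libraries.

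Both calls were near the threshold. Leaving out 1 library at a time kept the call of Slc4a1 in 14 of 17 fits (adjusted p 0.00567 to 0.0597) and lost it without WT f1 or WT m2 of 2 weeks or WT f of 4 weeks. The call of Epor held in 5 of 17 fits (adjusted p 0.0185 to 0.0762), those without 1 of the 4 KO libraries of 2 weeks or without WT m2 of 4 weeks, and was lost without any other library. The globin genes did not pass in WT, with log2 fold changes of 2.05 for Hbb-bs (SE 0.734, adjusted p = 0.107), 1.93 for Hbb-bt (SE 0.923, adjusted p = 0.233), 1.49 for Hba-a1 (SE 0.706, adjusted p = 0.227) and 1.71 for Hba-a2 (SE 0.668, adjusted p = 0.137). Without WT f3 of 4 weeks Hbb-bs was at 1.46, and without WT m3 of 4 weeks Hbb-bt was at 1.29. With DESeq2, Hbb-bs (adjusted p = 0.0187) and Hba-a2 (adjusted p = 0.0398) passed as well. Alas2 (1.49, SE 2.40, adjusted p = 0.870) and Klf1 (adjusted p = 0.165, at least 11.5-fold higher than 0 counts allow) did not pass, and without WT m3 of 4 weeks the bound for Klf1 was 1.46-fold. The value of Alas2 rested on single 2-week libraries, with 0.68 without WT m2, 0.68 without WT m3 and 4.72 without KO m2. Without WT f4, which leaves all 2-week WT libraries at 0, it went past the threshold.

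In KO no gene of the 8 tested passed between 2 and 4 weeks in edgeR, where 4.84% of 15703 genes were called higher and 1.49% lower with a median of 0.49. Unadjusted p-values were under 0.05 for 2 of them, Slc4a1 (log2 fold change 5.76, SE 1.95, adjusted p = 0.100) and Klf1 (adjusted p = 0.137), and DESeq2 called 1, Slc4a1. The 4-week KO mean of Klf1 was 17.1 times the 2-week limit of 3 counts, or 9.71 times without KO m2 of 4 weeks. Slc4a1 and Klf1 failed the filter on low counts at 2 weeks and entered the fit through their 4-week counts. Their p-values are therefore a description and support nothing. Epor (2.75, SE 1.99, adjusted p = 0.536) and Alas2 (1.98, SE 2.14, adjusted p = 0.747) had libraries with and without counts at 2 weeks, and single libraries moved their values to between 2.05 and 4.86 and between 1.19 and 6.92. The globin genes had log2 fold changes of 1.29 (Hbb-bs, SE 0.739, adjusted p = 0.356), 1.13 (Hbb-bt, SE 0.916, adjusted p = 0.596), 0.78 (Hba-a1, SE 0.722, adjusted p = 0.676) and 0.86 (Hba-a2, SE 0.676, adjusted p = 0.577). Without both 2-week KO males these values were 2.44, 3.10, 2.30 and 1.93 in the same order, with adjusted p = 0.154 to 0.219, and without KO m2 of 2 weeks alone Hbb-bt was at 1.81. KO m3 was the only 2-week library with a count of Slc4a1, and leaving it out, alone or with m2, leaves the 2-week KO libraries at 0 and the gene past the threshold, which is likewise a description. Other single libraries lowered the value of Slc4a1, to 4.95 without KO f2 of 4 weeks, and to 5.16 and 5.15 without KO f1 or f4 of 2 weeks.

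The interaction of genotype and time gives how far the KO difference at 4 weeks exceeded that at 2 weeks. It is built from the KO differences on which the genes were selected, so it is given as a description with no test of the 9 genes, beside 0.0637% of the 15703 genes called higher and 0.0127% called lower in edgeR. Alas2 had a log2 difference of 0.48 (SE 3.21), Slc4a1 of -4.22 (SE 2.02) and Epor of -7.69 (SE 2.63). For Slc4a1 and Epor, which were at 0 in 2-week WT, the size depends on the prior count of the fit. With 1 library left out Alas2 ran from -9.59 to 2.20, Slc4a1 from -5.17 to 0.76, the latter without KO m3 of 2 weeks, and Epor from -8.39 to -5.37. Klf1, at 0 in all 2-week libraries, gives no difference to read. The 4 globin genes had log2 differences of -0.72 to -0.85 with SE of 0.929 to 1.29. With 1 library left out these ran from -1.28 (Hbb-bt, without WT f1 of 2 weeks) to -0.10 (Hba-a1, without WT f3 of 4 weeks). Without both 2-week KO males these were 0.36, 0.94, 0.75 and 0.19 for Hbb-bs, Hbb-bt, Hba-a1 and Hba-a2, of the opposite sign.

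Other genes of the red cell programme were described by lists chosen from textbook roles. None of their genes passed in a KO comparison in edgeR. Among 12 genes of haem synthesis and iron uptake, Cpox, a mitochondrial enzyme of the later part of the pathway, was the 1 gene called at 4 weeks against 2, higher in WT and in KO, where 5.03% and 4.84% of all genes were called higher. It had 0 counts in all 2-week libraries, so that it entered the fit through its 4-week counts and the call supports nothing, and was at 1.86 ± 1.34 and 2.89 ± 2.19 CPM in WT and KO at 4 weeks. The most abundant genes of that list, Urod, Fech and Ppox, are used by most cells for haem and had 4-week means of 50.6, 50.3 and 45.7 CPM in WT. Of 15 genes of the red cell membrane and its skeleton, 2 to 6 were above 3 counts in the 2-week libraries and 4 to 13 in the 4-week libraries, and 11 of them were at 0 in every 2-week WT library. The leading ones, Epb41, Dmtn and Tmod1, which other cells also use, had 4-week means of 73.0, 22.2 and 13.6 CPM in WT and 77.7, 20.4 and 11.2 in KO.

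Of 10 erythroid transcription factors and partners, 7 could be fitted at 4 weeks, 3 with a higher and 4 with a lower KO value and a median log2 fold change of -0.05, against 0.01 for all genes. The leading ones, Cbfa2t3 and Lmo2, are also used in other blood and endothelial cells. The late erythroid and reticulocyte list, of which 13 genes were matched, had a median of -0.15 at 2 weeks (3 of 8 fitted genes higher in KO) and 0.59 at 4 weeks (8 of 11 higher), and its leading members Bnip3l, a mitophagy receptor, and Prdx2, a peroxidase, were at 217 and 182 CPM in 4-week WT and 211 and 196 in 4-week KO. Of 9 genes of erythropoietin signalling none was called in any comparison in edgeR, and the medians of KO over WT were -0.05 at 2 weeks and 0.24 at 4 weeks. For comparison, the 4 globin genes had medians of 2.18 and 1.61, with -0.06 and 0.01 for all genes. Other globin genes were scarce: 5 of the 7 matched were at 0 in all 17 libraries, among them the embryonic Hbb-y, while the theta globin genes Hbq1b and Hbq1a reached at most 1.72 and 0.928 CPM, at 4 weeks.

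Markers of other cells differed between the genotypes in part. The summed level of 8 macrophage genes in the 4-week libraries was 13.4 to 34.9 CPM for WT and 18.2 to 25.3 for KO, of 9 megakaryocyte and platelet genes 11.5 to 39.0 and 17.4 to 41.6, and of 10 neutrophil genes 19.9 to 103 and 37.3 to 75.4, each overlapping between genotypes. The sum of 6 B lineage genes was 3.89 to 8.51 CPM for WT and 8.30 to 16.7 for KO at that time, and both genes of the list that could be fitted were higher in KO, with a median log2 fold change of 1.93. The sum of 7 genes of marrow stroma and bone was 269 to 459 CPM for WT and 166 to 337 for KO, and 6 of the 7 were lower in KO, with a median of -0.82. For the 8 pan-endothelial genes every 2-week KO library (3470 to 4139 CPM) was below every 2-week WT library (4274 to 5333 CPM). The neutrophil sum of the 2-week libraries was 22.6 to 110.0 CPM for WT and 107 to 4162 for KO, with 1 of the 10 genes at 0 in every WT library and none at 0 in all KO libraries. The 8 genes of cell division had 2-week sums of 16.4 to 112 CPM for WT and 62.3 to 87.2 for KO, and 4-week sums of 7.09 to 23.5 and 5.86 to 39.6. Of the macrophage genes, C1qb had 0 counts in every 2-week KO library and was called higher at 4 weeks in KO (edgeR, adjusted p = 0.00345). It was also called for the interaction (edgeR, adjusted p = 0.0423). The neutrophil gene S100a8 was called lower at 4 weeks in KO (edgeR, adjusted p = 0.00783). The part of all these cells in the globin levels was not tested.

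The split of the 4-week libraries by Kdr also ran with the globins in WT. Hbb-bs was at 589 and 680 CPM in the WT libraries with low Kdr and at 67.0 to 136 in the 3 with high Kdr, so f3 and m3 were the WT libraries that KO m1, at 327 CPM, lay below. In KO it was at 689 and 1195 CPM with low Kdr and at 327 and 1593 with high Kdr. With a term for the split, chosen after the values were seen, the 4-week log2 fold changes were 2.01 for Hbb-bs, 2.19 for Hbb-bt, 1.80 for Hba-a1, 1.84 for Hba-a2 and 2.00 for Alas2, and 0.52 for Slc4a1, 0.51 for Epor and 1.36 for Klf1, the first 2 of these below their values without the term.

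**Figure D5:**
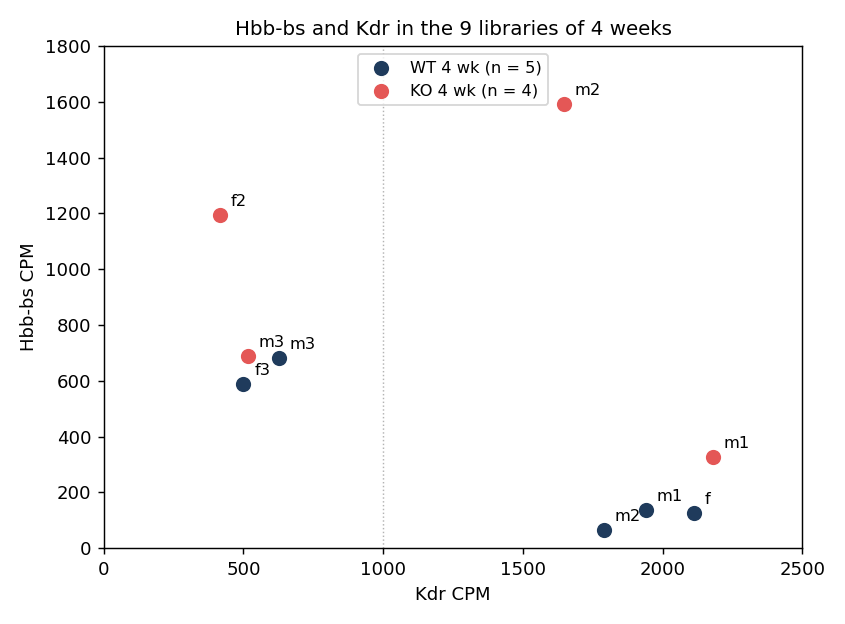
Hbb-bs against Kdr, both in CPM on linear axes, in the 5 WT and 4 KO libraries of 4 weeks, with library names beside the points and 1000 CPM of Kdr as a dotted line. On the left 2 WT libraries lie at 589 and 680 CPM of Hbb-bs below 2 KO libraries, and on the right 3 WT libraries lie at or below 136 CPM and KO m1 and m2 at 327 and 1593.

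Likeness of pattern was measured over the 17 libraries as Pearson's r of log2 CPM centred within each time point. Values were not centred within genotype, so the KO difference on which the 9 genes were selected enters r between them. Hbb-bs had r of 0.98 with Hba-a1, 0.97 with Hba-a2 and 0.94 with Hbb-bt, where the alpha genes share no 50-base window with it. It had r of 0.44 with Alas2, 0.43 with Slc4a1, 0.58 with Klf1 and 0.58 with Epor. Outside the 9 genes, the 5 highest among 15726 genes were Gm17501 (0.82), Apol11b (0.81), Rpl7a (0.80), Gm8172 (0.79) and Gm15518 (0.79), of which Rpl7a, a ribosomal protein gene, is the most abundant, at 291 to 491 CPM. Klf1 was most like Foxf1 (0.96), Plekha6 (0.95), Dgkg (0.95), Gm17586 (0.94) and Dnph1 (0.94), of which Plekha6 alone had a count in a 2-week library, so that these values rest on the 9 libraries of 4 weeks. All points share the library and its depth, and the values are a description.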

How the data were processed

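The deposited files hold raw counts per Ensembl gene, 1 file per library, made by the authors with cutadapt, STAR and HTSeq 0.6.1p1 on GRCm38/mm10, per the submitters' processing notes. The annotation, strand setting and treatment of multiply matching reads are not given in the sources used here. Symbols, coordinates and exon lengths came from GENCODE M21, and promoters from RefSeq (GRCm38.p6). CPM is a count divided by the library total. Tests used edgeR 4.0.16 (TMM, filterByExpr, robust quasi-likelihood F test, Benjamini-Hochberg adjustment over all genes tested, threshold 0.05, a term for sex) in R 4.3.3. KO was compared with WT within each time, and time and the interaction in a joint fit of 17 libraries. DESeq2 1.42.0 and the other alternatives are in the closing section. Scripts were tested on simulated data. The 9 genes, all lists and the split by Kdr were chosen with earlier results of these data known. Named were all 9 genes, up to 3 genes per list by mean CPM, called genes of erythroid lists, and the 5 most alike by r. Hbb-b1, Hbb-b2 and Ahsp were not analysed here. The labels give 1 sample per library, and p-values measure the spread between these samples.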

Additional observations from a re-analysis of the deposited data

Results flagged for a closer look

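Of 30 groups of values of the 9 genes that could be tested for 1 library far from the rest of its group (Dixon's criterion at 95%), 5 were met, where chance gives about 1 in 20. For 3 of the 5 (Alas2, Slc4a1 and Gata1) the other libraries of the group are all at 0, so that any count meets the criterion and the rate of 1 in 20 does not apply. Alas2 was at 19.5 CPM (799 counts) in 2-week WT f4 and at 0 in the other 3 libraries. Epor was at 5.24 CPM in 2-week KO f4, with at most 0.875 in the others. Slc4a1 was at 0.550 CPM in 2-week KO m3, with 0 in the others. In 4-week WT m3, Klf1 was at 4.16 CPM, with at most 0.474 in the others, and Gata1 at 1.55 CPM, with 0 in the others.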

How the results depend on the processing

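DESeq2 in place of edgeR called 149 genes for KO against WT at 2 weeks, 17 at 4 weeks, 2938 (4 of the 9) for time in WT, 2873 (1) for time in KO and 1303 for the interaction, where edgeR called 0, 0, 1086 (2), 994 (0) and 12. A joint fit of all libraries called 31 genes at 2 weeks. With no filter on low counts the calls were 580 (1 of the 9) for time in WT, 567 in KO and 6 for the interaction. Leaving out 1 library gave 588 to 1261 genes and 0 to 2 of the 9 for time in WT, 504 to 1222 and 0 to 1 for time in KO, and 7 to 51 for the interaction. Without both 2-week KO males the interaction had 251 calls, and time in KO had 1 of the 9. Per kilobase of exon, globins made 99.3% of the summed level of the 9 genes in 2-week KO, 98.0% in 4-week WT and 98.7% in 4-week KO. The cause of these shifts was not tested.

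Samples with the same replicate number did not deviate together in every pair (r of -0.02 to 0.05 at 2 weeks, 0.05 to 0.15 for the males at 4 weeks). The same-numbered WT and KO males of 4 weeks lay on the same side of 1000 CPM of Kdr. Their Kdr levels were 1940 and 2179 CPM for m1, 1789 and 1646 for m2, and 626 and 517 for m3. Whether such samples share a batch or anything beyond the number was not tested. With the replicate block no gene was called for KO at 2 or 4 weeks (0 and 0) or for the interaction (0), Hbb-bs was at 2.12 and 1.82 and Alas2 at 1.05 (4 weeks) on the log2 scale, and the time comparisons could not be fitted. Of 216 values of the 9 genes over the alternatives of the KO comparisons, 3 changed sign, 2 of Alas2 at 2 weeks and 1 of Slc4a1 at 4 weeks. Few counts limit the values of Klf1, Gata1 and, at 2 weeks, Slc4a1 and Epor; the 2-week libraries have the higher totals (26705337 to 40882715 counts, against 20477400 to 33726630 at 4 weeks) and fewer genes with a count, and the part of depth was not tested.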
